A study of Mus musculus with 6 samples.

Results

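The messages described here code for the proteins of the mitochondrial ribosome. They were taken by symbol: every row of the deposited expression table whose Ensembl ID maps to a mouse symbol of the form Mrpl or Mrps plus digits. The rule found 74 genes among 13965 rows, 48 with an Mrpl symbol and 26 with an Mrps symbol, and all 74 passed the filter on low values, as did 13766 rows in all. Mrpl33 was not analysed here, and Mrps18a, Mrps18b and Mrps18c fall outside the rule and were counted in a separate list. In 5 rows the authors joined a member with another Ensembl ID, so the value of such a row cannot be assigned to the member alone: Mrps6 with Slc5a3, Mrps24 with Urgcp, Mrps34 with Nme3, Mrpl53 with Gm42688, and Mrpl48 with an ID that has no symbol. Pseudogenes with Mrpl23, Mrpl48 and Mrps36 symbols exist in the mouse annotation, so the split of reads in those families is uncertain.

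The libraries were made from whole mouse kidneys at embryonic day 16. Mutant kidneys carried Six2-TGC, a transgene that expresses Cre recombinase in Six2-positive nephron progenitors, with both alleles of the microRNA cluster floxed (miR-17~92 flx/flx). Control kidneys are labelled wild type with 1 floxed allele (miR-17~92 flx/+), and no transgene is named for them. Each of 3 litters gave 1 mutant and 1 control library, so litter pairs the groups, while effects of the transgene itself and of the deletion cannot be told apart. Levels are in CPM, a gene's reads scaled to the total of its library. A log2 change is the mutant level over the control level on the log2(CPM + 0.5) scale. An SE beside a log2 change is from the fit with genotype alone unless the litter block is named. P-values set the difference between genotypes against the spread of these libraries within their group. With litter as a block they set it against the spread of that difference over the litters.

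Mitochondrial ribosomes translate the few proteins that the mitochondrial genome encodes, which are subunits of the respiratory chain and of ATP synthase. All of their proteins are encoded in the nucleus, made in the cytosol and imported, and they assemble with mitochondrial ribosomal RNA into a small subunit, which decodes the message, and a large subunit, which joins the amino acids. Many of these proteins descend from bacterial ribosomal proteins and others are found in mitochondria alone. Kidney tubules are rich in mitochondria, and nephron progenitors are known for a more glycolytic metabolism that shifts towards oxidative phosphorylation as they differentiate.

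The cluster under study makes 6 microRNAs in 4 seed families, shown because the seed, in capitals (bases 2 to 8), is what pairs with a target message. Sequences are from RefSeq on GRCm38.p6, and all 6 lie on the plus strand of chromosome 14, from chr14:115043684-115043706 for miR-17-5p to chr14:115044476-115044496 for miR-92a-3p.
miR-17-5p: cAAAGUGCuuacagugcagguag
miR-20a-5p: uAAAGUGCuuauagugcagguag
miR-18a-5p: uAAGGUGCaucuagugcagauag
miR-19a-3p: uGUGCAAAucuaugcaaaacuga
miR-19b-3p: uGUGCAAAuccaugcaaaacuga
miR-92a-3p: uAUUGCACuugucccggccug

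Seed matches were scarce in the members' messages. In the longest annotated 3′ UTR of each gene, 16 of 74 members (21.6%) held a match to at least 1 of the 4 seeds, against 34.1% of 13076 other tested rows. The members' 3′ UTRs were also shorter, with a median of 391.5 bases against 1217.5 bases in the other rows. Mrpl3 and Mrps5 are among the few members with matches to the miR-17/miR-20a seed and to the miR-18a seed. In limma with litter as a block their adjusted p-values were 0.0404 and 0.0571. The other members with a miR-17/miR-20a match were Mrpl1, Mrpl35, Mrpl51, Mrps24 and Mrps35. Theirs were 0.246, 0.393, 0.237, 0.631 and 0.401 in that order. All of these members had log2 changes below 0. Sites are shown for Mrpl3 and Mrps5. Their sites are given from GENCODE M21 on GRCm38, plus strand, with the match in capitals. The Mrpl3 sites lie at chr9:105077166-105077195 and chr9:105079103-105079132 and the Mrps5 site at chr2:127606362-127606391, all in the 3′ UTR.
Mrpl3, miR-17/miR-20a match: ctgtgcttcgtGCACTTTgatgaaccagat
Mrpl3, miR-18a match: gaagtaagcagGCACCTTcagtggctccat
Mrps5, miR-17/miR-20a match: agtgtgcctaaGCACTTTctcttcacctgc

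The 16 members with a match had a median log2 change of -0.09, and the 58 without one had a median of -0.14. Among other rows, the median was 0.07 with a match and -0.01 without one. A match is only a stretch of letters in this window.

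Promoters were searched, on both strands, for the letters bound by 3 factors known to act on nuclear genes for mitochondrial proteins. RefSeq windows from 250 bases before to 50 bases after the start were present for 65 of the 74 members and 10670 other tested genes. CCGGAAGT, bound by ETS factors such as GABPA, was found in 10 members (15.4%) and in 8.47% of the other genes. The palindrome of 10 letters bound by NRF1, in capitals in the Mrpl39 stretch, was found in 3 members (4.62%) and in 2.18% of the others. Its looser form, with any base at the sixth position, contains it and was found in 13 members (20%) and in 10.8% of the others. The 10 letters bound by YY1, in capitals in the second Mrps27 stretch, were found in 4 members (6.15%) and in 2.21% of the others. Members with the ETS letters had a median log2 change of -0.16 and those without had -0.14. With and without the NRF1 palindrome the medians were -0.15 and -0.14, and for its looser form -0.15 and -0.12. For the YY1 letters they were -0.16 and -0.14. These differences were not tested. The stretches shown hold the letters in capitals, for members described here with their values. A match is a description of the letters in this window. That of Mrpl3 is on the plus strand at chr9:105053238-105053267, that of Mrps22 on the minus strand at chr9:98601672-98601701, those of Mrps27 on the plus strand at chr13:99344726-99344755 and chr13:99344790-99344819, and that of Mrpl39 on the minus strand at chr16:84735350-84735379, all GRCm38.p6.
Mrpl3, ETS letters: tgagaaacggaCCGGAAGTggcccggctgt
Mrps22, ETS letters: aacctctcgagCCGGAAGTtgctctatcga
Mrps27, ETS letters on the other strand: gtggtaggaccACTTCCGGcggaggcgggc
Mrps27, YY1 letters: ggtgcgctccAAGATGGCGGctcccatggt
Mrpl39, NRF1 letters: aaggagaggcGCGCATGCGCccccgcgtgg

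Libraries held 43804667 to 54913325 reads. The row of the microRNA host gene Mir17hg, which joins the host transcript with the microRNAs and so does not check the deletion, had 53.6, 39.8 and 44.6 CPM in mutant kidneys and 34.1, 36.4 and 22.96 CPM in control kidneys. Six3, the neighbour of Six2, had 15.3, 20.1 and 17.6 CPM in mutant kidneys and at most 0.0454 CPM in control kidneys, which parts the libraries as labelled. Both litter 1 libraries stood apart from the other 4 on the first principal component, with 36.1% of the variance, and the genotypes on the second, with 31.9%. The summed level of 8 nephron progenitor markers was 295 to 312 CPM in mutant kidneys and 519 to 568 CPM in control kidneys. Capn6 alone had 143, 133 and 132 CPM in mutant and 289, 292 and 279 CPM in control kidneys. Six2, Osr1 and Crym overlapped between the genotypes, and Osr1 was higher in the mutant in litters 1 and 2. Sums of 9 proximal tubule markers were 880 to 1070 CPM in mutant kidneys and 737 to 839 CPM in control kidneys. Lrp2 alone, the endocytic receptor megalin, had 541, 488 and 408 CPM in mutant and 357, 298 and 340 CPM in control kidneys, while Slc34a1, Slc5a2, Fbp1, Slc27a2 and Ttc36 overlapped between the genotypes. Sums of 6 early nephron markers were 624 to 701 CPM in mutant and 578 to 623 CPM in control kidneys, and those of 6 ureteric bud and collecting duct markers 543 to 578 CPM in mutant and 483 to 518 CPM in control kidneys. Those of 6 stroma markers were 1364 to 1490 CPM in mutant and 1088 to 1276 CPM in control kidneys, and those of 5 endothelium markers 638 to 658 CPM in mutant and 522 to 560 CPM in control kidneys. No marker of these 6 lists was at 0, and the part of cell makeup in the lower levels of the members was not tested.

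All 74 members had a lower mean level in mutant than in control kidneys, by small amounts. The median log2 change was -0.14, a level 9.05% lower, and single members ranged from -0.33 for Mrps34 to -0.01 for Mrpl36. Over all 13766 rows tested the median was 0.01 and 46.9% of rows were below 0. That share was higher in short messages. It was 76.3% of other rows under 1000 bases and 66.7% from 1000 to 2000 bases, where 23 and 28 members lie. It was 51.3% from 2000 to 3000 bases and 28.4% from 3000 bases on, with 7 and 16 members. The members also lay close together, with an SD of 0.06 among their log2 changes against 0.21 among all rows. This was not particular to them, as the SD was 0.05 among 75 cytosolic ribosomal protein rows. Among 80 oxidative phosphorylation subunits it was 0.06. The fitted changes were thus all below 0 and small, and 58 of the 74 members were lower in 3 of 3 litters. Those nearest 0 were smaller than their SE, as in Mrpl36 (-0.01 ± 0.11), Mrps6 (-0.01 ± 0.08) and Mrps2 (-0.02 ± 0.11). The median standard error per gene was 0.10 with genotype alone and 0.06 with litter as a block.

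No member passed an adjusted p of 0.05 in limma with genotype alone, where 0.559% of all rows did, and the smallest adjusted p of a member was 0.381. At an unadjusted p below 0.05 there were 3 members, Mrps33, Mrpl23 and Mrps14, against 11.3% of all rows. With litter as a block, 3 members passed, all lower in mutant kidneys, against 11.4% of all rows (3.51% lower and 7.93% higher). They were Mrps33, Mrpl11 and Mrpl3. Without litter 1, where 2.21% of rows passed the blocked fit, none of the 3 did; without litter 2 (10.1%) Mrpl11 did, and without litter 3 (16.5%) Mrpl3 did. Each of these fits holds 4 libraries. At an unadjusted p below 0.05 the blocked fit held 30 members (40.5%), against 29.2% of rows. At the recovered library totals every CPM value was a whole number of reads to within 0.001 reads, and count tests were planned but not run.

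Summed over the 74 genes, the messages made up 3570, 3747 and 3457 CPM in the mutant kidneys of litters 1, 2 and 3, against 3855, 4048 and 3874 CPM in the control kidneys. The means were 3591 ± 146 CPM in mutant kidneys and 3926 ± 107 CPM in control kidneys (SD, n = 3 each), and the groups did not overlap. The mutant library was the lower one in each litter. Fewer cells rich in these messages and less message per cell cannot be told apart in whole kidneys.

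**Figure D1:**
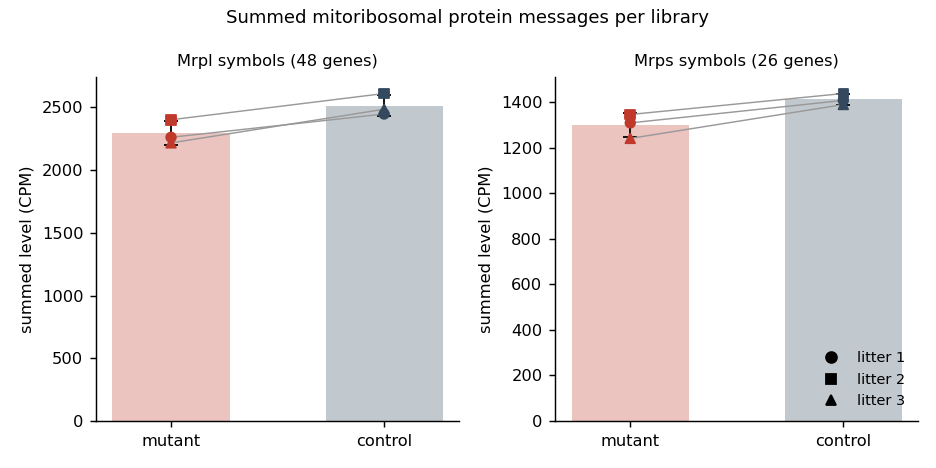
Summed level in CPM of the 48 Mrpl genes (left panel) and the 26 Mrps genes (right panel) in mutant and control kidneys. Bars give means, error bars the SD (n = 3), points the libraries with 1 symbol per litter, and grey lines join libraries of a litter; every line is higher at its control end.

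Levels of single members spanned a wide range. The mean over all 6 libraries had a median of 49.4 CPM across members, and the lowest and highest values in any library were 1.86 CPM (Mrps34) and 133 CPM (Mrpl13). Per kilobase of transcript, the highest were Mrpl52 at 129.6, Mrpl30 at 128, Mrps21 at 123, Mrps17 at 116 and Mrpl42 at 101 CPM. The lowest were Mrps34 at 3.02, Mrpl57 at 4.44, Mrps6 at 6.34, Mrps25 at 6.41 and Mrps26 at 7.34 CPM per kilobase, with Mrps34 and Mrps6 in joined rows whose length may be that of the other gene.

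Mrpl and Mrps messages had similar proportions in both genotypes. The ratio of the Mrpl sum to the Mrps sum was 1.73 to 1.79 in mutant kidneys and 1.74 to 1.82 in control kidneys, so the ranges overlapped. The median log2 change was -0.14 for the Mrpl genes and -0.14 for the Mrps genes, and all 48 and all 26 were below 0.

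By litter, the members' median log2 change was -0.09 in litter 1, -0.12 in litter 2 and -0.18 in litter 3. Members with a lower level in the mutant numbered 72 in litter 1, 63 in litter 2 and 70 in litter 3, against 49.7%, 46.2% and 45% of all rows. In 58 members the mutant was lower in 3 of 3 litters, a pattern found in 22.2% of all rows. In 15 members it was lower in 2 litters, and Mrps6 alone was lower in 1. Mutant and control values did not overlap, with mutant lower, in 25 members, against 7.12% of all rows, and in 0 members with mutant higher, against 10.2%. The share among rows of like length was not computed for this count. The lowest of the 6 libraries was a mutant for most members: mutant 3 for 32, mutant 1 for 29 and mutant 2 for 9.

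**Figure D2:**
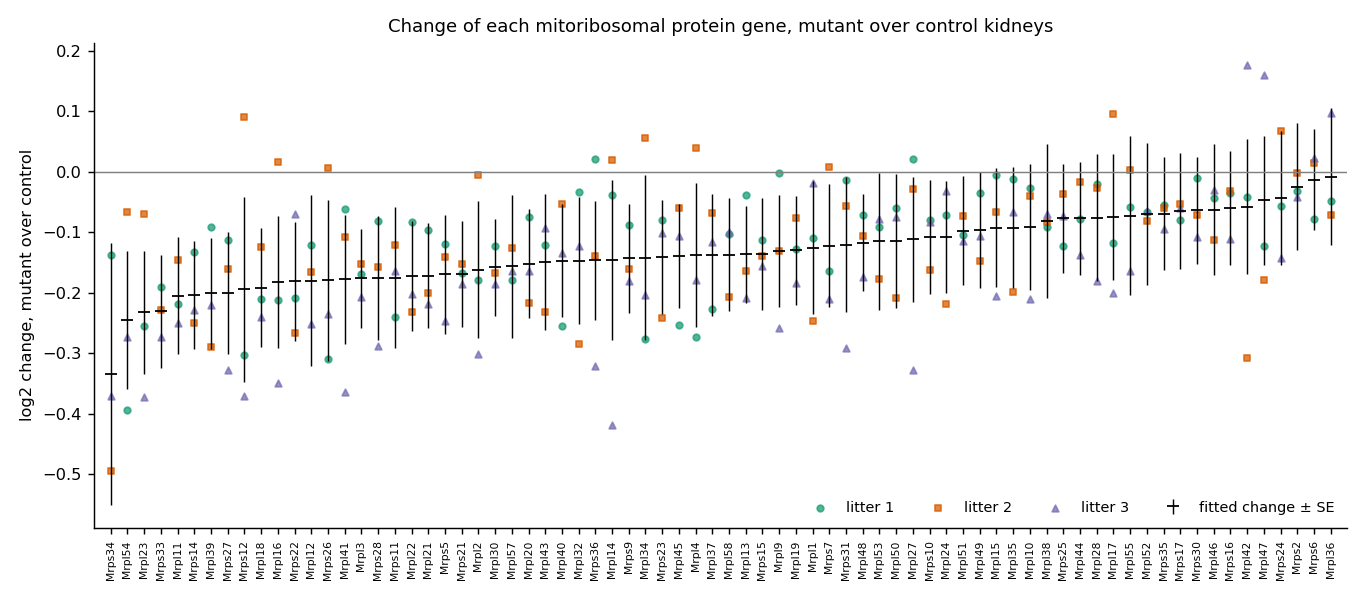
Log2 change, mutant over control, of each of the 74 genes, ordered from lowest to highest. Black ticks with lines give the fitted change ± SE and coloured symbols the change within each litter; every fitted change is below 0, from -0.33 (Mrps34) to -0.01 (Mrpl36).

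In the large subunit, the conserved core of 18 genes had a median log2 change of -0.14, and all 18 were below 0. Mrpl3, a core protein near the site of peptide bond formation, had 95.3, 95.1 and 101 CPM in the mutant kidneys of litters 1, 2 and 3, against 107, 106 and 116 CPM in the control kidneys of the same litters. Every mutant value lay below every control value. Its log2 change was -0.18 ± 0.08 (SE), with an adjusted p of 0.459 in limma with genotype alone and 0.0404 with the litter block. Mrpl30 had 82.6, 79.6 and 77.8 CPM in mutant kidneys and 89.97, 89.4 and 88.5 CPM in control kidneys, again without overlap. Its log2 change was -0.16, and its level per length, 128 CPM per kilobase, was the highest of the core (limma adjusted p = 0.5, blocked 0.0648). Mrpl19 had 48.9, 48.4 and 44.5 CPM in mutant kidneys and 53.5, 51.1 and 50.6 CPM in control kidneys, also without overlap (log2 change -0.13, blocked limma adjusted p = 0.1597). At the other end, Mrpl36 had 19.2, 19.1 and 17.8 CPM in mutant kidneys and 19.8, 20.1 and 16.7 CPM in control kidneys, and its groups overlapped (log2 change -0.01).

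The stalk is the arm of the large subunit that recruits translation factors. All 5 stalk genes were lower in the mutant in 3 of 3 litters, and their median log2 change was -0.18. Mrpl11, at the base of the stalk, had 57.7, 63.3 and 53.1 CPM in the mutant kidneys of litters 1, 2 and 3, against 67.2, 70.1 and 63.2 CPM in the control kidneys of the same litters. The mutant was lower in every litter, although the highest mutant value, in litter 2, just exceeded the lowest control value, in litter 3. Its log2 change was -0.20 ± 0.10 (SE; limma adjusted p = 0.468 with genotype alone and 0.0403 with the block). Mrpl12, which binds the factors and is also known in human cells to bind the mitochondrial RNA polymerase, had 20.8, 27.3 and 24.1 CPM in mutant kidneys and 22.7, 30.7 and 28.7 CPM in control kidneys. Its groups overlapped and its log2 change was -0.18 (blocked limma adjusted p = 0.121). Mrpl10, which holds Mrpl12 on the ribosome, had a log2 change of -0.09, and Mrpl54 one of -0.24, with 28.03, 36.8 and 30.8 CPM in mutant kidneys and 36.98, 38.6 and 37.4 CPM in control kidneys. The Mrpl54 groups did not overlap, but it did not pass the test (blocked limma adjusted p = 0.0717).

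Around the exit of the peptide tunnel, 9 genes had a median log2 change of -0.11. Mrpl39 had 69.5, 61.1 and 60.3 CPM in the mutant kidneys of litters 1, 2 and 3, against 74.1, 74.8 and 70.3 CPM in the control kidneys of the same litters, with no overlap. Its log2 change was -0.20, with an SE of 0.09 with genotype alone (limma adjusted p = 0.452). With the block the SE was 0.06, and it fell just short of the threshold (limma adjusted p = 0.0548). Mrpl23, a bacterial-type exit protein, had 56.8, 69.2 and 58.2 CPM in mutant kidneys and 67.9, 72.6 and 75.5 CPM in control kidneys, and mutant 2 overlapped the control values (log2 change -0.23, blocked limma adjusted p = 0.0552). Mrpl45, which in human cells holds the ribosome to the inner membrane, had 64.6, 72.1 and 71.5 CPM in mutant kidneys and 77.1, 75.2 and 77.1 CPM in control kidneys, with no overlap and a log2 change of -0.14. Mrpl44, an RNase III-like protein, had a log2 change of -0.08, and Mrpl47 had -0.05, with litters on both sides of 0.

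The central protuberance, which contacts the small subunit and the transfer RNAs, had the highest median of the role groups, -0.10 over 10 genes. Mrpl18 had 48.8, 46.1 and 42.5 CPM in mutant kidneys and 56.5, 50.2 and 50.3 CPM in control kidneys, with no overlap (log2 change -0.19, blocked limma adjusted p = 0.0615). Mrpl58, which releases peptides from stalled ribosomes, had a log2 change of -0.14. Mrps30 carries a small subunit symbol but belongs to the large subunit, and its log2 change was -0.06. Mrpl52, with the highest level per length of all members at 129.6 CPM per kilobase, had 51.5, 63.01 and 52.4 CPM in mutant kidneys and 53.97, 66.7 and 54.8 CPM in control kidneys. Its groups overlapped, and litter 2 was high in both genotypes. A further 7 large subunit genes found in mitochondria alone had a median log2 change of -0.14. Among them, Mrpl42 had 68.2, 61.9 and 65.9 CPM in mutant kidneys and 70.3, 76.8 and 58.2 CPM in control kidneys. The highest and the lowest of its 6 values were both in control kidneys, and its log2 change was -0.06. Mrpl57 had 10.95, 12.5 and 12.7 CPM in mutant kidneys and 12.5, 13.7 and 14.3 CPM in control kidneys, lower in the mutant in each litter (log2 change -0.16).

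In the small subunit, 15 genes of bacterial descent had a median log2 change of -0.14. Mrps14, in the head of the subunit, had 48.6, 44.3 and 44.5 CPM in the mutant kidneys of litters 1, 2 and 3, against 53.4, 52.7 and 52.2 CPM in the control kidneys of the same litters. The groups did not overlap, and the control values were nearly equal in the 3 litters. Its log2 change was -0.20 ± 0.09 (SE; limma adjusted p = 0.422 with genotype alone and 0.0511 with the block). Mrps5, beside the entry of the message, had 107, 99.3 and 86.6 CPM in mutant kidneys and 116, 109.6 and 103 CPM in control kidneys, lower in the mutant in each litter but overlapping across litters (log2 change -0.17, blocked limma adjusted p = 0.0571). Mrps12, of the decoding centre, had 24.1, 36.2 and 30.02 CPM in mutant kidneys and 29.9, 33.9 and 38.97 CPM in control kidneys. The libraries of litter 1 were low in both genotypes, and in litter 2 the mutant was the higher one (log2 change -0.19). Mrps21, among the most abundant members per length, had 50.3, 54.5 and 50.8 CPM in mutant kidneys and 56.6, 60.6 and 57.8 CPM in control kidneys, with no overlap (log2 change -0.17, blocked limma adjusted p = 0.0708). Mrps17, likewise abundant, had 104, 102 and 90.1 CPM in mutant kidneys and 109.8, 106 and 93.99 CPM in control kidneys, lower in the mutant by similar steps in each litter, while litter 3 was low in both genotypes (log2 change -0.06). The head protein Mrps7 had a log2 change of -0.12 and Mrps16, mutated in a human respiratory chain disorder, one of -0.06. Mrps2 was at -0.02, with 32.8, 38.5 and 36.6 CPM in mutant kidneys and 33.5, 38.6 and 37.6 CPM in control kidneys, which overlapped. The joined rows of Mrps24 and Mrps6 were at -0.04 and -0.01, and Mrps6 had 69.02, 67.9 and 69.6 CPM in mutant kidneys and 72.8, 67.2 and 68.5 CPM in control kidneys.

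The 10 remaining Mrps symbols, most of them for proteins found in mitochondria alone, had a median log2 change of -0.16. They include Mrps36, now known as a subunit of the 2-oxoglutarate dehydrogenase complex and not a ribosomal protein, which had a log2 change of -0.15. Mrps33 had 41.98, 39.6 and 37 CPM in the mutant kidneys of litters 1, 2 and 3, against 47.99, 46.5 and 44.8 CPM in the control kidneys of the same litters. Every mutant value lay below every control value, and the gap was of similar size in the 3 litters. Its log2 change was -0.23 ± 0.09 (SE), the smallest p-value of the members in both fits (limma adjusted p = 0.381 with genotype alone and 0.0364 with the block). Mrps22, mutated in human mitochondrial disease, had 39.8, 35.1 and 38.8 CPM in mutant kidneys and 46.1, 42.3 and 40.8 CPM in control kidneys, with no overlap (log2 change -0.18, blocked limma adjusted p = 0.0997). Mrps27, an RNA-binding protein, had 30.1, 32.3 and 30.5 CPM in mutant kidneys and 32.6, 36.1 and 38.4 CPM in control kidneys, also with no overlap (log2 change -0.20, blocked limma adjusted p = 0.0928). Mrps34 shares its row with Nme3 and had the lowest levels of all, 1.86, 2.55 and 2.7 CPM in mutant kidneys and 2.1, 3.79 and 3.64 CPM in control kidneys. Its log2 change of -0.33 is thus the least precise. The SE was 0.22 with genotype alone (limma adjusted p = 0.611) and 0.14 with the block (limma adjusted p = 0.149). Mrps25 had 37.97, 37.5 and 38.1 CPM in mutant kidneys and 41.4, 38.5 and 40.1 CPM in control kidneys, with no overlap (log2 change -0.08). Mrps26 had 24.3, 34.2 and 30.1 CPM in mutant kidneys and 30.2, 34.04 and 35.6 CPM in control kidneys, low in both genotypes in litter 1 and with hardly any difference in litter 2 (log2 change -0.18).

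**Figure D3:**
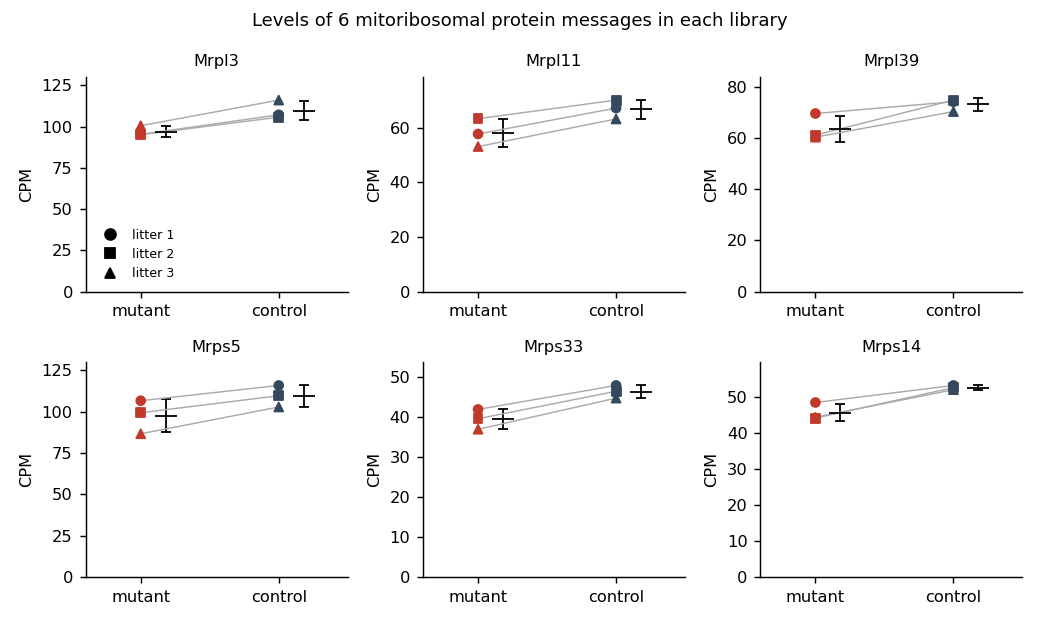
Level in CPM of 6 messages in mutant and control kidneys. Points are libraries with 1 symbol per litter, grey lines join a litter, and the tick with its bar beside each group gives the mean ± SD (n = 3); in all 6 messages the mutant point lies below the control point in each litter.

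Log2 changes over all rows followed transcript length. Spearman's rho between length and log2 change was 0.43 over 13517 rows, as a description across genes of the same libraries. The members were short, with a median length of 1365 bases against 2763.5 bases over all rows, and 23 of them were under 1000 bases. Among the members alone rho was 0.29. In rows under 1000 bases, the median log2 change was -0.16 for 23 members and -0.11 for 976 other rows. From 1000 to 2000 bases it was -0.14 for 28 members and -0.06 for 3155 other rows. From 2000 to 3000 bases it was -0.14 for 7 members and 0.00 for 3344 other rows, and from 3000 bases on -0.09 for 16 members and 0.08 for 5968 other rows. On these medians over the 3 litters, members lay below other rows in each of the 4 length classes. The class from 3000 bases on includes the joined rows of Mrps6, Mrps24 and Mrpl53, given 10913, 5089 and 3628 bases. Such a length may be that of the gene joined to the member. Under 1000 bases the gap lay in litter 3, where the medians were -0.22 for members and -0.13 for other rows. In litters 1 and 2 they were -0.08 and -0.11 for members and -0.09 and -0.10 for other rows. Lower levels in 3 of 3 litters were found in 15, 25, 7 and 11 members of the 4 classes, from short to long, against 47.2%, 36.3%, 21.9% and 10.4% of the other rows.

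**Figure D4:**
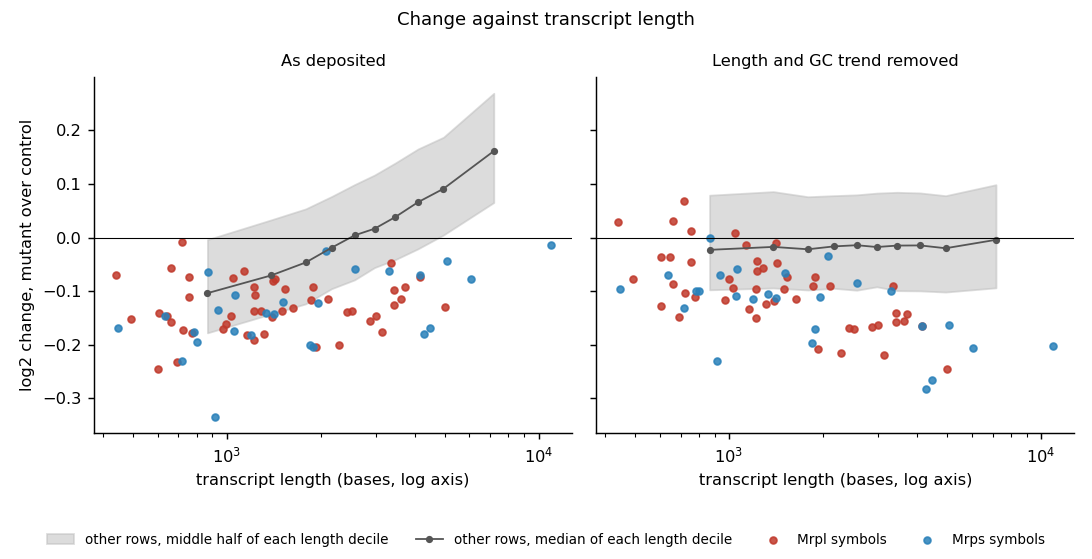
Log2 change, mutant over control, against transcript length in bases (log axis), as deposited (left) and after removal of a fitted length and GC trend per library (right). Points are the 74 genes, the line is the median and the band the middle 50% of other rows in length deciles; members from 3000 bases on lie mostly below the band in both panels.

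After a length and GC trend fitted in each library had been taken out, the members' median log2 change was -0.10 and 69 of 74 were below 0, where all rows had a median of -0.02 and 55.1% below 0. Members lower in 3 of 3 litters numbered 50, against 26.4% of all rows. With genotype alone no member passed, against 1.2% of rows. With the block 6 members passed, against 6.25% of rows (2.96% lower). All 6 were lower in mutant kidneys. Mrps5 had a corrected log2 change of -0.27 (limma adjusted p = 0.0199) and Mrpl3 one of -0.22 (limma adjusted p = 0.02604). Mrpl19 was at -0.24, Mrpl11 at -0.21, Mrps6 at -0.20 and Mrpl39 at -0.22, with limma adjusted p-values of 0.0377, 0.0464, 0.0492 and 0.0493 in that order. Mrpl3 and Mrpl11 were called with and without the correction. Mrps33, of 717 bases, was at -0.13 after it and was not called (limma adjusted p = 0.187). With lengths of the longest transcript in place of the median, Mrpl3, Mrpl11 and Mrps5 passed, against 5.62% of rows. Under TMM or median-ratio scaling without the correction, 9 members passed with the block, against 10.8% and 10.9% of rows. The row that joins Mrps6 with Slc5a3 was given a length of 10913 bases, and as deposited its log2 change was -0.01. The correction moved short members up and long members down, and rho between length and the corrected change was -0.59 among the members.

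GC content moved with the litter. Over the 74 members, Spearman's rho between GC content and a library's deviation from the row mean was -0.63 in mutant 1 and -0.54 in control 1, 0.59 in mutant 2 and 0.47 in control 2, and -0.02 in mutant 3 and 0.35 in control 3. All rows gave like values, from -0.63 in mutant 1 to 0.60 in mutant 2. GC-rich members thus tended to be low in both libraries of litter 1 and high in both libraries of litter 2.

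Other genes of mitochondrial translation were set beside the members, by their counts and medians. Of 8 mitoribosomal genes with other symbols, 6 were below 0 and the median log2 change was -0.12. Dap3, the GTP-binding protein of the small subunit, had 124, 133 and 121 CPM in mutant kidneys and 136, 140 and 134 CPM in control kidneys (blocked limma adjusted p = 0.112). The 29 assembly factors had a median of -0.09, with 22 below 0. The median was -0.05 for 21 translation factors and -0.07 for 19 mitochondrial tRNA synthetases. Lars2, which charges leucine tRNA, was uneven, with 177, 118 and 176 CPM in mutant kidneys and 120, 455 and 450 CPM in control kidneys. In these 4 lists no gene passed with or without the block.

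Of 13 genes for upkeep and transcription of mitochondrial DNA, 11 were below 0, with a median of -0.08, and 2 passed with the block, where 11.4% of all rows did. Tfam, which packages mitochondrial DNA and takes part in its transcription, had 118, 104 and 112 CPM in mutant kidneys. In control kidneys it had 138, 123 and 127 CPM, with no overlap (log2 change -0.21 ± 0.09 (SE), limma adjusted p = 0.375 and 0.0196 with the block). Ssbp1, the single-strand DNA-binding protein, had 96.8, 79.7 and 75.9 CPM in mutant kidneys and 115, 97.4 and 80.7 CPM in control kidneys (blocked limma adjusted p = 0.0437). With the length and GC correction and the block neither passed, at limma adjusted p = 0.103 for Tfam and 0.166 for Ssbp1. Among 11 regulators of biogenesis the median was -0.02, and Myc passed with the block, with 40.4, 52.6 and 52.5 CPM in mutant kidneys and 48.5, 60.7 and 59.2 CPM in control kidneys (log2 change -0.21 ± 0.13 (SE), limma adjusted p = 0.589 with genotype alone and 0.0395 with the block). After the correction Myc did not pass with the block (limma adjusted p = 0.0591), and Yy1, a transcription factor of the list, did, at a corrected log2 change of -0.18 (limma adjusted p = 0.0427). Genes of the mitochondrial genome itself were not analysed here.

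Beside the members, 75 cytosolic ribosomal protein rows had a median log2 change of -0.21, and 67 of them were called lower with the block. For 80 nuclear subunits of oxidative phosphorylation the median was -0.17, with 31 called lower. Of all rows, 3.51% were called lower in that fit. With the length and GC trend removed the medians were -0.14 and -0.10, beside -0.10 for the mitoribosomal genes. With the block, 30, 9 and 6 rows were then called lower, against 2.96% of all rows. The messages of both lists are shorter than those of the members, with median lengths of 777.5 and 743.5 bases. No test of the differences between the lists was made.

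**Figure D5:**
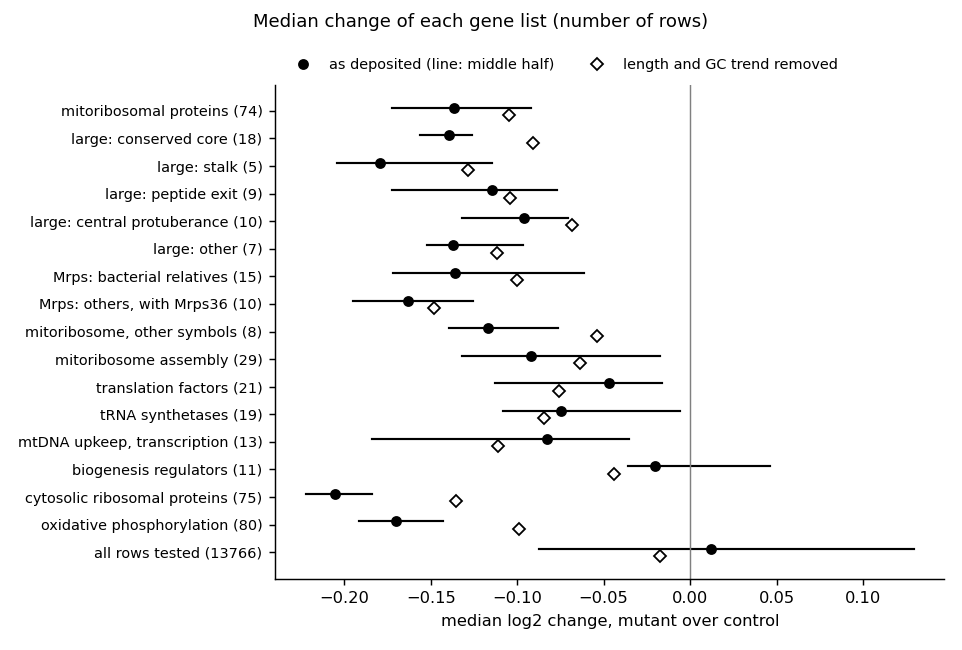
Median log2 change, mutant over control, of each list of genes, with the number of rows in brackets. Filled points are values as deposited, with a line over the middle 50% of the list, and open diamonds are values with the length and GC trend removed; the mitoribosomal role groups lie between -0.18 and -0.10, and all rows at 0.01.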

How the data were processed

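RNA of 6 kidney libraries was sequenced after TruSeq preparation from total RNA, per the labels' protocols. TopHat2 2.0.9, Picard, SAMtools and genome build NCBIM37 appear in the submitters' processing notes. The counting tool, annotation and strand setting are not given in the sources used here. The authors deposited CPM values, 1 column per library, and the library totals were recovered from the steps between values. Symbols, lengths and GC content came from GENCODE M21, the length being the median of a gene's basic coding transcripts.

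Rows reaching 1 CPM in 3 or more libraries were tested with limma 3.58.1 (R 4.3.3, mean-variance trend) on log2(CPM + 0.5), with Benjamini-Hochberg adjustment over all 13766 rows and a threshold of 0.05. The main fit used genotype alone. Litter, which the labels name, was an alternative block: deviations from the group means correlated within litters (r = 0.62, 0.45 and 0.31). The correction removed each library's natural spline trend (5 degrees of freedom) on log2 length and GC content. The fits were also run on simulated data. The changes put into those data were all larger than the members' median change, so changes of that size were not covered.

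Members named are the 10 with the smallest adjusted p in the blocked fit, the 5 highest and 5 lowest changes, the 5 highest and 5 lowest levels per kilobase, joined rows, and genes of known role; examples are given from these. Mrpl13, Mrpl19 and Mrps27 were added after their values were seen. The members and lists were chosen with earlier results of these data known. Other settings tried were pseudocounts of 0.1 and 1, no filter or 5 CPM, TMM and median-ratio scaling, joined rows left out, and each library or litter left out.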

Additional observations from a re-analysis of the deposited data

How the results depend on the processing

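With litter as a replicate block, the pairing the labels give, 1574 rows were called (1091 higher, 483 lower in mutant kidneys), against 77 with genotype alone (50 higher, 27 lower), 3 members against 0, and 101 rows of the other lists against 0. The length and GC correction gave 165 rows, and 860, 6 and 40 with the block; by the longest transcript and the block it gave 774, 3 and 31. TMM scaling with the block gave 1493 rows, 9 members and 106 in the other lists, and median-ratio scaling 1501, 9 and 107; the 9 were Mrpl3, Mrpl11, Mrpl18, Mrpl23, Mrpl30, Mrpl39, Mrps5, Mrps14 and Mrps33. Leaving out single libraries gave 22 (without mutant 3) to 100 rows (without control 1), 0 members throughout, and 0 to 2 rows of the other lists. Without litter 1, 2 or 3 the counts were 93, 9 and 3 rows with genotype alone, and with the block 304, 1392 and 2284 rows, 0, 5 and 2 members, and 2, 99 and 108 rows of the other lists. Of the 3 members called with the block, none was called without litter 1, Mrpl11 was without litter 2, Mrpl3 was without litter 3, and Mrps33 was in none of these fits, which hold fewer samples.

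The members' median log2 change was -0.11 to -0.16 over single libraries left out, -0.15 under either scaling and -0.10 with the correction, against -0.14 as reported. The median of the 26 Mrps symbols ran from -0.10 (without mutant 3) to -0.16 (without mutant 2), and was -0.10 with the longest-transcript correction. The cause of these differences was not tested. Over the 36 named members, all below 0 and none called as reported, 35 alternative values passed the threshold and 33 others turned above 0. The 33 belong to 8 members. The length and GC correction gave 0.068 for Mrpl36, 0.032 for Mrpl42 and 0.029 for Mrpl52, with or without the block, and by the longest transcript 0.064, 0.037 and 0.025 in the same order. Without litter 1 Mrpl36 was at 0.013 and Mrps6 at 0.019, without litter 2 Mrpl36 at 0.024, Mrpl42 at 0.068 and Mrpl47 at 0.018, and without litter 3 Mrps24 at 0.0062, with or without the block. Over single libraries left out, Mrpl36 ran from -0.092 to 0.039, Mrpl42 from -0.17 to 0.030, Mrpl47 from -0.13 to 0.0064, Mrpl52 from -0.16 to 0.027, Mrps2 from -0.086 to 0.039, Mrps6 from -0.037 to 0.021, Mrps17 from -0.13 to 0.00046 and Mrps24 from -0.15 to 0.032. The planned count tests, by edgeR and DESeq2, were not run.

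The median standard error of a single member was 0.10 with genotype alone and 0.06 with the block, against a median change of -0.14. Each member but Mrps34 had at least 529 reads in every library. The choice of transcripts sets the length of each gene and so the correction.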
